A study of Mus musculus with 5 samples.

Results

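The 39 DNA replication genes described here, of 27726 genes common to the 5 deposited matrices, were chosen by symbol as genes that act in S phase. Their measured values were not used in the choice, but earlier results of these data were known. They were sorted into 6 role groups: 11 genes of origin licensing, 4 of helicase activation, 7 of the sliding clamp, its loader and single-strand binding, 8 polymerase and Okazaki fragment genes, 5 of nucleotide supply and 4 chromatin genes. Their RNA was counted as unique molecular identifiers (UMIs, 1 per captured transcript end) in single group 2 innate lymphoid cells (ILC2s) of the mouse lung, with 3' libraries of the 10x Genomics platform. All 5 libraries came from wild-type female C57BL/6 mice aged 4 to 8 weeks, and each held the pooled cells of 5 mice, so that single animals cannot be read. The naive library held freshly sorted cells of mice without a tumour. The 2 ta-non-activated libraries, called fresh tumour libraries here, held freshly sorted lung cells of tumour-carrying mice, taken at week 2 and at week 3. The tumour came from TC1 cells injected under the skin of the right flank, away from the lung. The 2 ta-activated libraries, called cultured libraries here, held cells of tumour-carrying mice of the same weeks that were kept for 7 days in culture with recombinant human IL-2, mouse IL-33 and TSLP at 10 ng/mL each. Sorting took cells without lineage markers (CD3, CD4, CD8 and NK1.1 among them) that were positive for CD45, Thy1.2, CD127 and ST2.

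Before a cell divides, it loads the MCM helicase onto origins in G1 (licensing), fires the helicase with CDC45 and GINS in S phase, and copies DNA with polymerases held on the template by the PCNA clamp. Ribonucleotide reductase, thymidylate synthase, dUTPase and thymidine kinase supply the nucleotides, and CAF-1, UHRF1 and PCLAF act on the new chromatin. Many of these genes are transcribed by E2F factors late in G1 and in S phase, while mitosis genes such as Mki67, Top2a and Cenpf peak later, in G2 and M. ILC2s of the adult lung are mostly resting residents that divide after stimulation by alarmins such as IL-33 and TSLP. Early thymocytes, a T cell precursor stage with Rag1, Ptcra and Dntt, include many dividing cells.

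Cells needed 200 genes and less than 5% mitochondrial UMIs to be kept, which left 1601 to 6389 cells and 9394957 to 61830293 UMIs a library, with a median of 4396 to 16090 UMIs a cell. Among the kept barcodes, 35 occurred in more than 1 library. The naive matrix came from another Cell Ranger version (6.0.0 against 3.0.2), so its version and its condition cannot be told apart. ILC2-gated cells, defined by UMIs of at least 2 of 8 ILC2 genes and of more of these than of 8 thymocyte genes, made up 90.3% of the naive library, 98.4% of the week 2 fresh tumour library, and 94.6% and 98.0% of the cultured libraries of weeks 2 and 3. The week 3 fresh tumour library stood apart and went against its label: 36.9% of its 1601 cells (590) were ILC2-gated, while 858 (53.6%) had UMIs of at least 3 of the 8 thymocyte genes and of more of them than of ILC2 genes. Dntt (1266 CPM, UMIs scaled to a library total of 1000000), Ptcra (121 CPM) and Rag1 (83.7 CPM) are among the 8 genes that chose these 858 cells, and Il13 and Il5 (0.14 CPM each) are among the 8 ILC2 genes, so that these levels only describe the choice. Of 12 thymocyte genes the rule did not use, Cd3g stood at 2294 CPM in them and 236 CPM in the ILC2-gated cells of that library. Hes1 stood at 1141 against 597 CPM, Notch1 at 151 against 13.2 CPM and Bcl11b at 453 against 195 CPM. Notch3 (38.5 CPM), Cd8b1 (29.8 CPM), Dtx1 (16.4 CPM), Rag2 (7.98 CPM), Cd8a (3.08 CPM) and Cd4 (0.42 CPM) had no UMI in the ILC2-gated cells. Kit (14.6 against 207 CPM) and Il2ra (130 against 162 CPM) went the other way. These 858 cells are called thymocyte-like below. The 279 naive cells that met the same rule had 1.35 CPM of Dntt and of Ptcra and no UMI of Rag1, and are not called so. Most sums, counts of members, ratios and shares that rest on the week 3 fresh tumour library are also given for ILC2-gated cells. Its levels of single genes by role and its shares of cells with single genes are those of all kept cells. So are the counts at an unadjusted p, and those of other genes lower or higher in both cultured libraries. The summed CPM of the 6 NK cell markers was 602 in that library, nearly all of it Gzma (599.6 CPM), and 1.58 to 38.6 in the other 4.

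All 39 genes were detected in all 5 libraries. Their summed level was 533 CPM in the naive library (95% interval 525 to 541), 2049.8 CPM and 3288 CPM in the fresh tumour libraries of weeks 2 and 3, and 1771 CPM and 1435 CPM in the cultured libraries of weeks 2 and 3. The naive library was the lowest, and the others stood at 3.85, 6.17, 3.32 and 2.69 times its level in that order. Intervals of levels are exact Poisson intervals at the 95% level and cover counting error only. For single genes, the naive library was the lowest of the 5 for 36 members and the week 3 fresh tumour library the highest for 32. This order was not counted over all genes. Above the naive level stood 37 and 38 members in the fresh tumour libraries, beside 5293 and 5792 of the 12643 genes tested further on. In the cultured libraries 37 and 36 members did, beside 6209 and 6528 of these genes. In sums over a library, fewer cells that replicate and less RNA per cell cannot be told apart, and the shares of cells follow further on. Within ILC2-gated cells the order changed: the sum was 526 CPM in the naive library, 2052 and 634 CPM in the fresh tumour libraries of weeks 2 and 3, and 1753 and 1434 CPM in the cultured libraries. There the naive library was the lowest for 26 members and the week 3 fresh tumour library for 12. The week 2 fresh tumour library was the highest for 24 members, and the week 3 fresh tumour library for none. This order was also not counted over all genes.

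**Figure D1:**
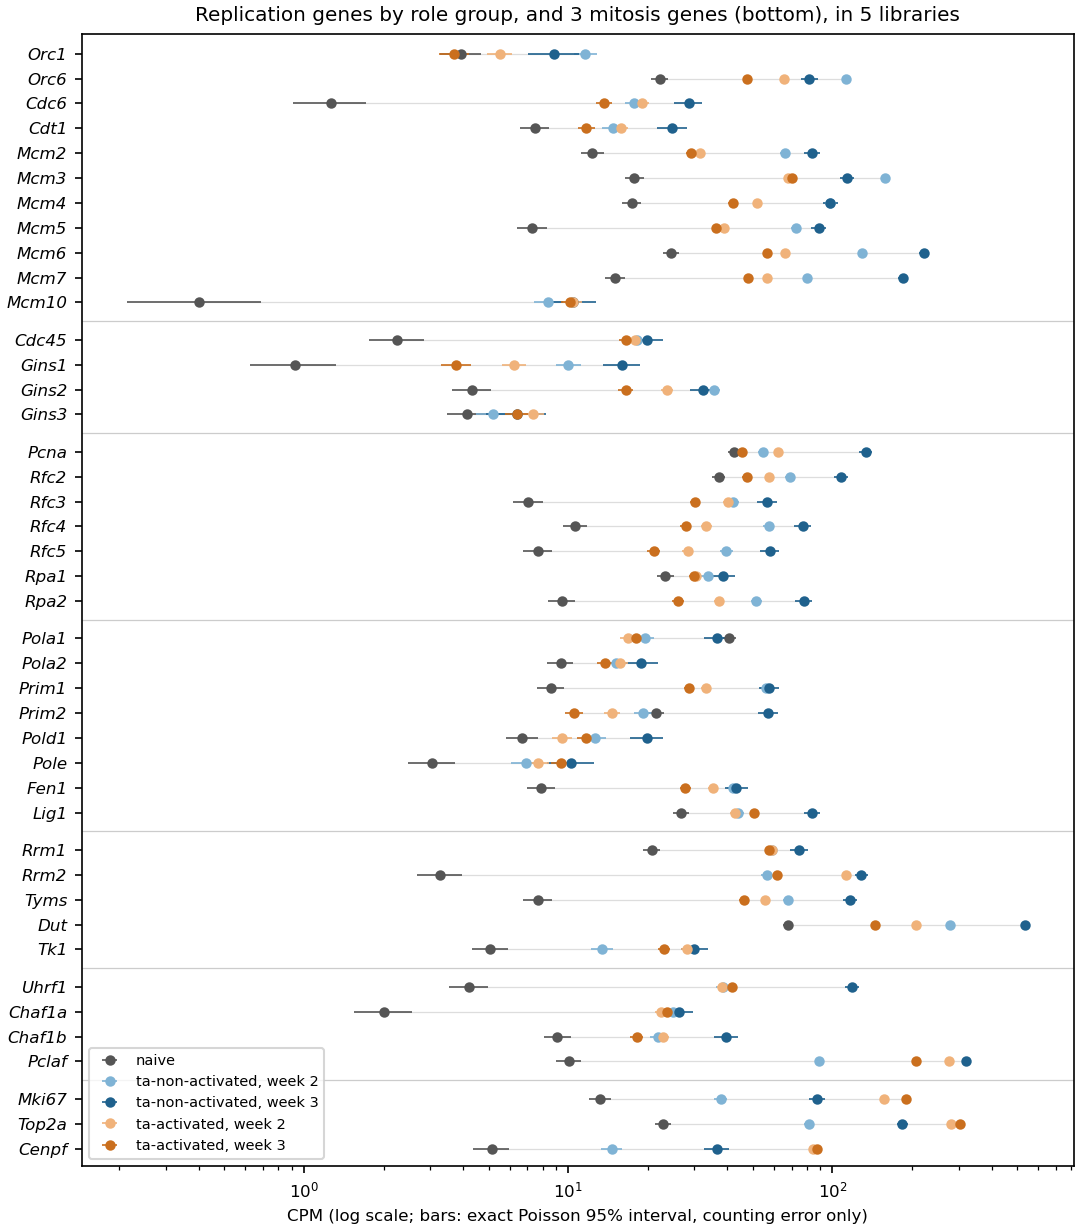
Level of each of the 39 replication genes, grouped by role, and of 3 mitosis genes at the bottom, in the 5 libraries, all kept cells. The horizontal axis is CPM on a log scale, each point is 1 library, and bars are exact Poisson 95% intervals. The naive points lie farthest to the left for 36 of the 39 replication genes, and the cultured points lie farthest to the right for the mitosis genes. In ILC2-gated cells, not drawn here, the naive library was the lowest for 26 of the 39. Neither order was counted over all genes.

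The licensing genes summed to 129.5 CPM in the naive library, to 769 and 945 CPM in the fresh tumour libraries, and to 429 and 369 CPM in the cultured libraries. Mcm6, a subunit of the MCM2-7 helicase (chr1:128331590-128359664, minus strand, GRCm38), had the largest mean level of the group. It stood at 24.4 CPM in the naive library, 129 and 222 CPM in the fresh tumour libraries of weeks 2 and 3, and 66.1 and 56.7 CPM in the cultured libraries of weeks 2 and 3, and the last 2 groups did not overlap. Mcm2 stood at 12.3 CPM in the naive library, 66.3 and 83.6 CPM in the fresh tumour libraries, and 31.5 and 29.2 CPM in the cultured libraries. Mcm3 stood at 17.8 CPM, 158 and 114 CPM, and 67.6 and 70.5 CPM in the same order. Mcm5 stood at 7.28 CPM, 72.5 and 88.7 CPM, and 38.8 and 36.4 CPM. All 6 subunits of the helicase had this order in all kept cells, with the cultured libraries above the naive one and below both fresh tumour libraries. In ILC2-gated cells the order turned in week 3, where all 6 were higher in the cultured library, by 0.69 (Mcm6) to 1.56 (Mcm3) on the log2 scale. There 8065 of 12643 genes tested were higher too. Cdt1, which loads the helicase, stood closer together: 7.47 CPM in the naive library, 14.7 and 24.8 CPM in the fresh tumour libraries, and 15.8 and 11.7 CPM in the cultured libraries, so that its groups overlapped. Orc1, of the origin recognition complex, stood at 3.92 CPM, 11.6 and 8.83 CPM, and 5.51 and 3.70 CPM, with the naive and the week 3 cultured values next to each other. Mcm7 stood at 15.0 CPM, 80.2 and 185 CPM, and 56.4 and 47.9 CPM, and Mcm10, which acts when the helicase is fired, at 0.40 CPM, 8.40 and 10.4 CPM, and 10.4 and 10.2 CPM. The remaining 3 (Orc6, Cdc6 and Mcm4) lay between 1.27 and 22.2 CPM in the naive library and between 13.7 and 112 CPM in the tumour libraries. Of the 11 licensing genes, 8 were lower in both cultured than in both fresh tumour libraries and none was higher in both, where 20.6% of all genes tested were lower and 32.4% higher. In ILC2-gated cells none was lower in both and 1, Mcm10, was higher (12.4% and 34.1% of all genes). Mcm10 was sorted into this group although it acts when the helicase is fired. In week 3 all 11 were above 0 there (median log2 ratio 1.16, all genes 0.30).

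The helicase activation genes summed to 11.6 CPM in the naive library, 68.9 and 74.5 CPM in the fresh tumour libraries, and 55.0 and 43.2 CPM in the cultured libraries. In ILC2-gated cells of week 3 they summed to 11.0 CPM fresh and 43.1 CPM cultured. Gins2, a GINS subunit, stood at 4.32 CPM in the naive library, 35.5 and 32.4 CPM in the fresh tumour libraries, and 23.6 and 16.5 CPM in the cultured libraries. Gins1 stood at 0.93 CPM, 10.0 and 15.97 CPM, and 6.22 and 3.77 CPM in that order. Cdc45, the helicase cofactor, stood at 2.25 CPM in the naive library, while its 4 tumour libraries lay between 16.6 and 19.8 CPM. In ILC2-gated cells its log2 ratio of the week 3 fresh tumour to the naive library was -0.62. Gins3 differed little anywhere, from 4.14 CPM in the naive library to 7.38 CPM in the week 2 cultured library. It was the single member above both fresh tumour libraries in both cultured ones, and its week 3 values, 6.39 CPM both fresh and cultured, could not be told apart at this depth.

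The clamp group summed to 138 CPM in the naive library, 348 and 549.8 CPM in the fresh tumour libraries, and 289 and 228 CPM in the cultured libraries. Pcna, the sliding clamp, stood at 42.5 CPM in the naive library, 54.6 and 133 CPM in the fresh tumour libraries, and 62.0 and 45.6 CPM in the cultured libraries. Its week 3 fresh tumour value alone was high, and the naive and week 3 cultured values lay next to each other. In that week 3 fresh library the log2 ratio of thymocyte-like to ILC2-gated cells was 2.26 for Pcna. The ILC2-gated cells of that library had a log2 ratio to the ILC2-gated naive cells of -0.33. The annotation also holds a pseudogene, Pcna-ps2, with which reads could be shared. Rfc2, a subunit of the clamp loader, stood at 37.2 CPM, 68.9 and 108 CPM, and 57.7 and 47.3 CPM in the same order. The other 4 genes (Rfc3, Rfc4, Rfc5 and Rpa2) lay between 7.04 and 10.6 CPM in the naive library and between 21.1 and 77.9 CPM in the tumour libraries. Rpa1, which coats single-stranded DNA, spanned the least of the group, from 23.3 CPM in the naive library to 38.6 CPM in the week 3 fresh tumour library. In ILC2-gated cells of week 3 the clamp group summed to 171 CPM fresh and 228 CPM cultured.

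The polymerase and Okazaki fragment genes had the smallest spread of the 6 groups, with 124 CPM in the naive library, 215 and 327 CPM in the fresh tumour libraries, and 175 and 170.1 CPM in the cultured libraries. In ILC2-gated cells of week 3 they summed to 99.3 CPM fresh and 169.9 CPM cultured. Lig1, the ligase that joins Okazaki fragments, stood at 26.7 CPM in the naive library, 43.8 and 83.8 CPM in the fresh tumour libraries, and 42.7 and 50.4 CPM in the cultured libraries. Pola1, the catalytic subunit of the primase-polymerase, was the single member with its highest level in the naive library, at 40.7 CPM, against 19.5 and 36.5 CPM in the fresh tumour and 16.8 and 18.0 CPM in the cultured libraries. Prim2, a primase subunit, stood at 21.4 CPM in the naive library, 19.2 and 57.2 CPM in the fresh tumour libraries, and 14.6 and 10.5 CPM in the cultured libraries. Pole, the leading strand polymerase, stood at 3.06 CPM, 6.92 and 10.2 CPM, and 7.71 and 9.36 CPM, with overlapping tumour groups. Pola2, Prim1, Pold1 and Fen1 lay between 6.70 and 9.35 CPM in the naive library and between 9.47 and 57.7 CPM in the tumour libraries. Pola1 and Prim2 are the members with the most intronic sequence (318576 and 210048 bases), and the naive matrix is the one made with the other Cell Ranger version. The part of intron reads in these values was not tested.

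The nucleotide supply genes summed to 104 CPM in the naive library, 474 and 887 CPM in the fresh tumour libraries, and 463 and 333 CPM in the cultured libraries. Dut, the dUTPase, stood at 67.6 CPM in the naive library, 278 and 538 CPM in the fresh tumour libraries, and 208 and 145 CPM in the cultured libraries. Rrm2, the regulatory subunit of ribonucleotide reductase, did not keep this order: it stood at 3.27 CPM in the naive library, 56.4 and 128 CPM in the fresh tumour libraries, and 113 and 61.5 CPM in the cultured libraries. Tk1, the cytosolic thymidine kinase, stood at 5.06 CPM, 13.5 and 30.02 CPM, and 28.0 and 23.0 CPM in that order. Rrm1, the large reductase subunit, and Tyms, thymidylate synthase, stood at 20.7 and 7.66 CPM in the naive library and between 46.1 and 116 CPM in the tumour libraries. For Rrm2 and Tk1 the cultured library was the higher one in week 2 and the lower one in week 3. In ILC2-gated cells of week 3 the nucleotide supply genes summed to 150 CPM fresh and 333 CPM cultured.

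The chromatin genes differed most from the naive library, with 25.3 CPM there and 174 and 504 CPM in the fresh tumour libraries and 359 and 291 CPM in the cultured libraries. Pclaf, the PCNA-associated factor, carried most of this: it stood at 10.0 CPM in the naive library, 89.0 and 319 CPM in the fresh tumour libraries, and 276 and 208 CPM in the cultured libraries. Uhrf1, which brings DNA methylation to new strands, stood at 4.198 CPM, 38.4 and 119 CPM, and 38.1 and 41.5 CPM. Chaf1a, the large subunit of the histone chaperone CAF-1, stood at 2.01 CPM in the naive library, and its 4 tumour libraries lay between 22.5 and 26.3 CPM. In ILC2-gated cells its log2 ratio of the week 3 fresh tumour to the naive library was 0.046. Chaf1b, another CAF-1 subunit, lay between 9.11 CPM in the naive and 39.5 CPM in the week 3 fresh tumour library. In ILC2-gated cells of week 3 the chromatin genes summed to 40.3 CPM fresh and 291 CPM cultured.

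Against the naive library, 28 of 39 members were at least 2-fold higher in the week 2 fresh tumour library, where 16.5% of the 12643 genes tested were (1 CPM added to both levels). The largest log2 ratios were those of Rrm2 (3.75), Mcm5 (3.15) and Chaf1a (3.11), and the smallest those of Pola1 (-1.02), Prim2 (-0.15) and Gins3 (0.27). All 5 nucleotide supply genes and all 4 chromatin genes passed 2-fold, as did 10 of 11 licensing genes and 2 of 8 polymerase genes. In the week 3 fresh tumour library 34 members did, against 16% of all genes, led by Rrm2 (4.92), Pclaf (4.86) and Uhrf1 (4.52). Among ILC2-gated cells of that library a single member, Mcm5, was at least 2-fold above the ILC2-gated naive cells, beside 2.7% of all genes, and the median log2 ratio of the members was 0.34 (all genes: -0.23). Pclaf (0.94) and Rrm2 (0.88) followed Mcm5 (1.16) there, and Orc1 (-2.20, with no UMI in the gated fresh cells), Pola1 (-2.04) and Pole (-0.89) had the lowest ratios. With 1 naive library these differences have no replicate check, and no test was made.

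The comparison with 2 libraries in each group sets the cultured against the fresh tumour libraries, 1 of week 2 and 1 of week 3 in each. With edgeR (quasi-likelihood test, Benjamini-Hochberg adjusted p over 12643 genes), 0 genes were higher (0%) and 0 lower (0%) at an adjusted p under 0.05, and all 39 members were tested and none passed. At an unadjusted p under 0.05 stood 2120 genes, 9.32% of all genes on the higher and 7.45% on the lower side. On the lower side stood 14 of the 39 members (35.9%), and none on the higher. The 14 held 7 of the 11 licensing genes, 3 of 7 clamp genes, 2 of 8 polymerase genes and 1 each of helicase activation and nucleotide supply. DESeq2, run beside it, called 4.48% of 12575 genes higher and 3.85% lower, and among the members it called Mcm2, Mcm5 and Mcm6 lower and none higher. The median log2 fold change of the members was -0.82, with 35 below 0 and 4 above, beside a median of -0.02 over all genes. With ILC2-gated cells only, that median was -0.05. Since each library pools animals, p-values measure the spread between libraries, which may be technical. The 2 libraries of a group are also of different weeks, so that this spread includes the week. The 2 fresh tumour libraries differ in make-up too, with 98.4% and 36.9% ILC2-gated cells in weeks 2 and 3. Their ILC2-gated cells differ as well: Il13 stood at 8905 CPM in week 2 and 99.3 CPM in week 3, and Il5 at 1230 and 252 CPM. All other ILC2 genes of the rule were higher in week 3, such as Rora (162 and 1194 CPM) and Il1rl1 (56.6 and 411 CPM). Il13 stood at 61.2 CPM in ILC2-gated naive cells and at 3591 and 4330 CPM in ILC2-gated cultured cells.

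Single members are given with edgeR's log2 fold change, its SE and the adjusted p of the quasi-likelihood test. Prim2 had the lowest value, -1.63 (SE 0.56, adjusted p = 0.27), followed by Mcm6 at -1.58 (SE 0.37, adjusted p = 0.24) and Gins1 at -1.44 (SE 0.46, adjusted p = 0.26). Mcm2 stood at -1.39 (SE 0.31, adjusted p = 0.24), and DESeq2 gave it an adjusted p of 0.015. At the other end were Pclaf at 0.22 (SE 0.61, adjusted p = 0.87), Tk1 at 0.19 (SE 0.43, adjusted p = 0.84) and Gins3 at 0.16 (SE 0.37, adjusted p = 0.84). Counted without a test, 26 of the 39 members were lower in both cultured than in both fresh tumour libraries, which held for 20.6% of all genes tested. A single member, Gins3, was higher in both, which held for 32.4% of all genes. In ILC2-gated cells the first count was 1 (Rfc2) and the second 6 (Gins3, Mcm10, Pclaf, Pole, Rrm2, Tk1), beside 12.4% and 34.1% of all genes. Without the week 3 fresh tumour library, 26 members were below the week 2 one in both cultured libraries and 6 above, beside 30.8% and 54.2% of all genes.

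The mitosis genes had another order. Mki67 stood at 13.2 CPM in the naive library, 37.8 and 87.2 CPM in the fresh tumour libraries, and 156 and 189.9 CPM in the cultured libraries. Top2a, the topoisomerase that untangles sister chromosomes, stood at 22.9 CPM, 81.2 and 184 CPM, and 282 and 305 CPM in that order. Cenpf, a kinetochore protein, stood at 5.12 CPM, 14.6 and 36.5 CPM, and 84.1 and 87.3 CPM. In all 3 the cultured libraries lay above both fresh tumour ones, as they did for 32.4% of all genes tested. The edgeR log2 fold changes were 1.42 for Mki67 (SE 0.44, adjusted p = 0.26) and 1.10 for Top2a (SE 0.43, adjusted p = 0.31). For Cenpf edgeR gave 1.70 (SE 0.46, adjusted p = 0.25). DESeq2 called Cenpf higher (adjusted p = 0.032) and did not call Mki67 (0.073) or Top2a (0.18). In ILC2-gated cells the 3 genes summed to 43.9 CPM in the naive library and 134 and 40.8 CPM in the fresh tumour libraries. In the cultured libraries they summed to 524 and 583 CPM there.

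The balance of replication to mitosis was therefore taken as UMIs of the 39 members per UMI of Mki67, Top2a and Cenpf. It was 12.9 in the naive library (95% interval 12.2 to 13.7), 15.3 (14.9 to 15.8) and 10.7 (10.3 to 11.1) in the fresh tumour libraries of weeks 2 and 3, and 3.39 (3.34 to 3.43) and 2.47 (2.44 to 2.50) in the cultured libraries. The fresh and the cultured libraries did not overlap. The intervals cover counting error, and the naive ratio was 27.1 without the 5% of barcodes with the most UMIs and 6.26 with 16 mitosis genes in place of 3. On the log2 scale the cultured libraries averaged 1.53 ± 0.32 (SD, n = 2) and the fresh tumour libraries 3.68 ± 0.37 (SD, n = 2), a difference of -2.15. An exact permutation test (two-sided, n = 2 against 2) gave p = 0.333, the smallest it can give. In ILC2-gated cells the ratios were 12.0 in the naive library, 15.3 and 15.5 in the fresh tumour libraries, and 3.35 and 2.46 in the cultured libraries, so that the groups did not overlap there either. In 5 of the 6 role groups the ratio to mitosis UMIs was lower in both cultured than in all 3 fresh libraries, and for licensing it was 3.15 in the naive library, 5.76 and 3.08 in the fresh tumour, and 0.82 and 0.63 in the cultured libraries. The exception was the chromatin group, whose ratio of 0.69 in the week 2 cultured library lay above the 0.62 of the naive library.

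**Figure D2:**
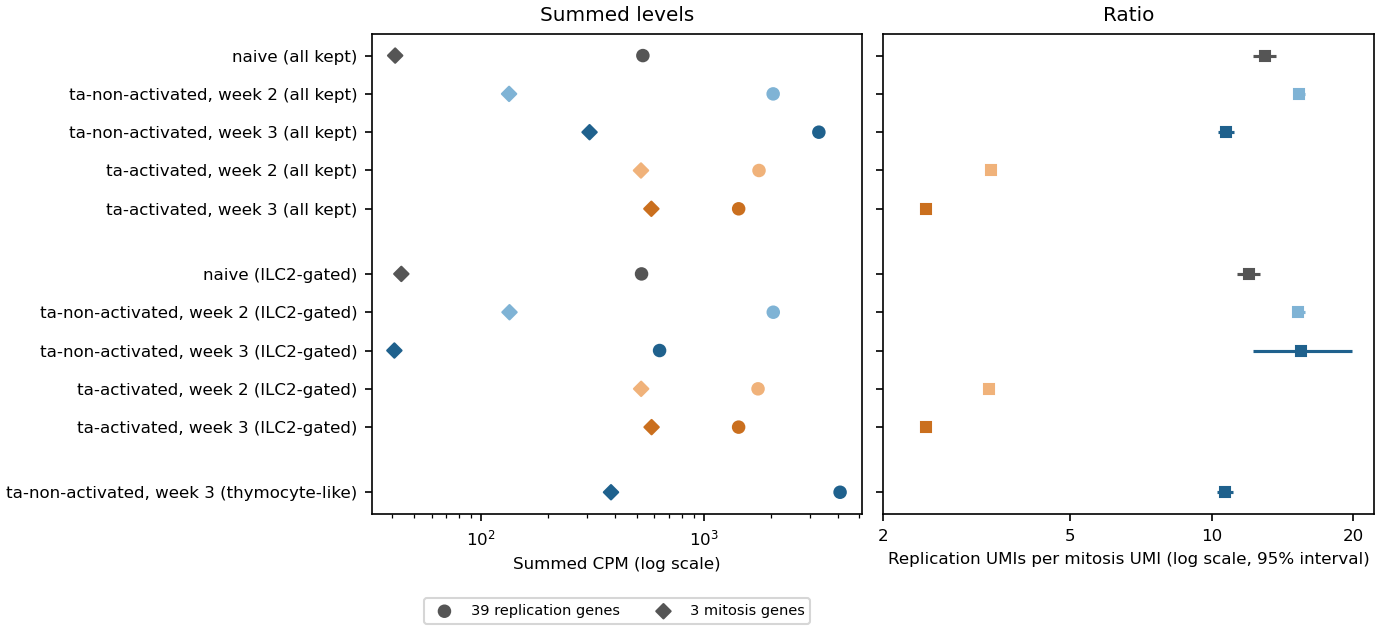
Left, summed CPM (log scale) of the 39 replication genes (circles) and of Mki67, Top2a and Cenpf (diamonds) in each library, for all kept cells, ILC2-gated cells and the thymocyte-like cells of week 3. Right, replication UMIs per mitosis UMI (log scale) with 95% intervals from counting. The cultured ratios (2.46 to 3.39) lie to the left of all fresh ones (10.7 to 15.5).

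The thymocyte-like cells held 94.7% of the member UMIs of the week 3 fresh tumour library, and its ILC2-gated cells 3.72%. The 39 members summed to 4094 CPM in the thymocyte-like and to 634 CPM in the ILC2-gated cells of this same library, with a median of 6282 and 2895.5 UMIs a cell. Of the members, 38 were at least 2-fold higher in the thymocyte-like cells, as were 21.1% of all genes tested, and the exception was Rfc2 (121 against 65.7 CPM). The largest log2 ratios were those of Uhrf1 (4.69, 153 against 4.97 CPM), Rrm2 (4.35, 166 against 7.17 CPM) and Pclaf (4.23, 411 against 21.0 CPM). The smallest after Rfc2 (0.88) were those of Gins3 (1.14) and Rpa1 (1.19). Dut, the most counted member, stood at 668 against 105 CPM and Mcm6 at 278 against 34.8 CPM. Orc1, a subunit of the origin recognition complex, had no UMI among 1812017 in the ILC2-gated cells, and at 11.3 CPM it was at least 6.85-fold higher in the thymocyte-like cells, counted against 3 UMIs in all. The median log2 ratio over the members was 2.58, also with Orc1 at this bound, beside 0.19 over all genes. The mitosis genes were higher too, and the replication to mitosis ratio of the thymocyte-like cells was 10.7 (10.3 to 11.1) beside 15.5 (12.3 to 19.9) in the ILC2-gated cells. With 1 library there is no replicate check of this comparison.

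**Figure D3:**
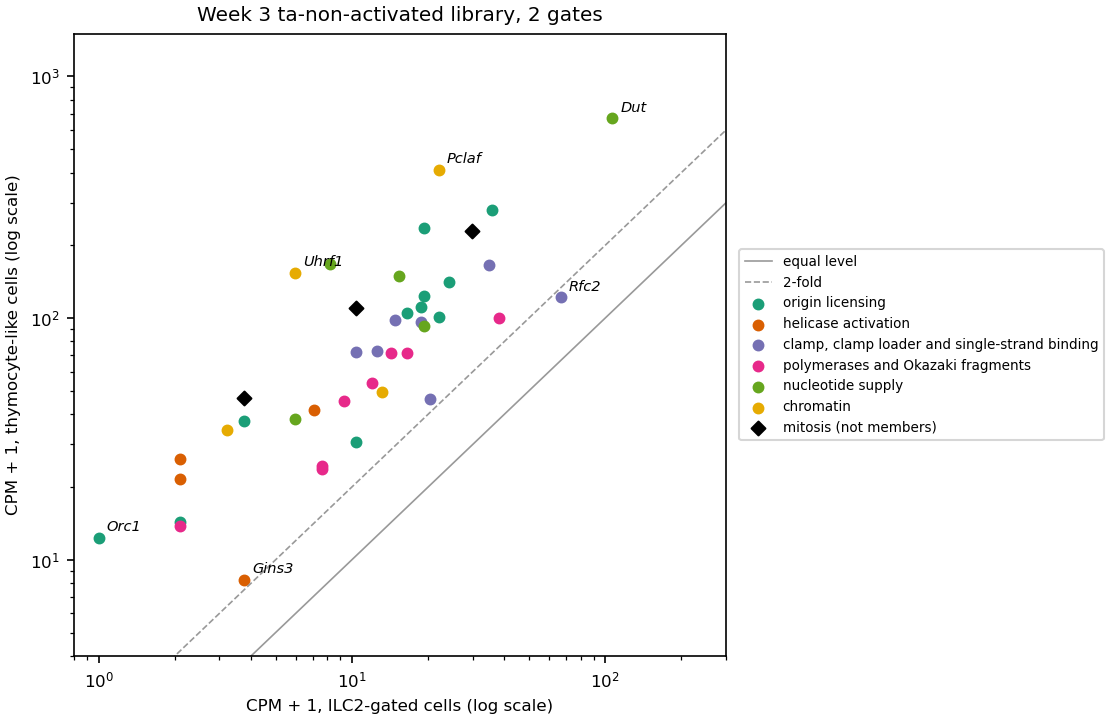
Level of each replication gene (circles, coloured by role) and of the 3 mitosis genes (diamonds) in the thymocyte-like against the ILC2-gated cells of the week 3 fresh tumour library, as CPM + 1 on log axes. The solid line marks equal levels and the dashed line 2-fold. All points but Rfc2 lie above the dashed line.

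With ILC2-gated cells alone, the cultured and fresh libraries compared differently in the 2 weeks. In week 2 the members summed to 2052 CPM fresh and 1753 CPM cultured, with a median log2 ratio of -0.26 (all genes: 0.17), and 2 members, Mcm2 and Mcm3, were at least 2-fold lower, beside 7.28% of all genes. Mcm3 stood at 158 CPM fresh and 66.8 CPM cultured. The largest ratios were those of Pclaf (1.60, from 89.3 to 273 CPM), Tk1 (0.996) and Rrm2 (0.97, from 56.6 to 112 CPM). In week 3 the members summed to 634 CPM fresh and 1434 CPM cultured, with a median log2 ratio of 1.14 (all genes: 0.30), and 22 members were at least 2-fold higher, beside 21.3% of all genes. Pclaf led there too (3.25, from 21.0 to 208 CPM), followed by Cdc45 (3.06, from 1.10 to 16.6 CPM) and Chaf1a (2.94, from 2.21 to 23.6 CPM), while Rfc2 (-0.47) and Prim2 (-0.31) had the smallest ratios. The week 3 fresh values rest on 590 cells with 1148 member UMIs. Beyond counting error, 18 members were lower in week 2 and higher in week 3, beside 9.86% of all genes, and with all kept cells 4 were higher in week 2 and lower in week 3, beside 11.6% of all genes. With 1 library at each point the difference between the weeks was not tested. The ILC2-gated fresh cells of the 2 weeks also differed in ILC2 genes such as Il13 and Rora, as given above.

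**Figure D4:**
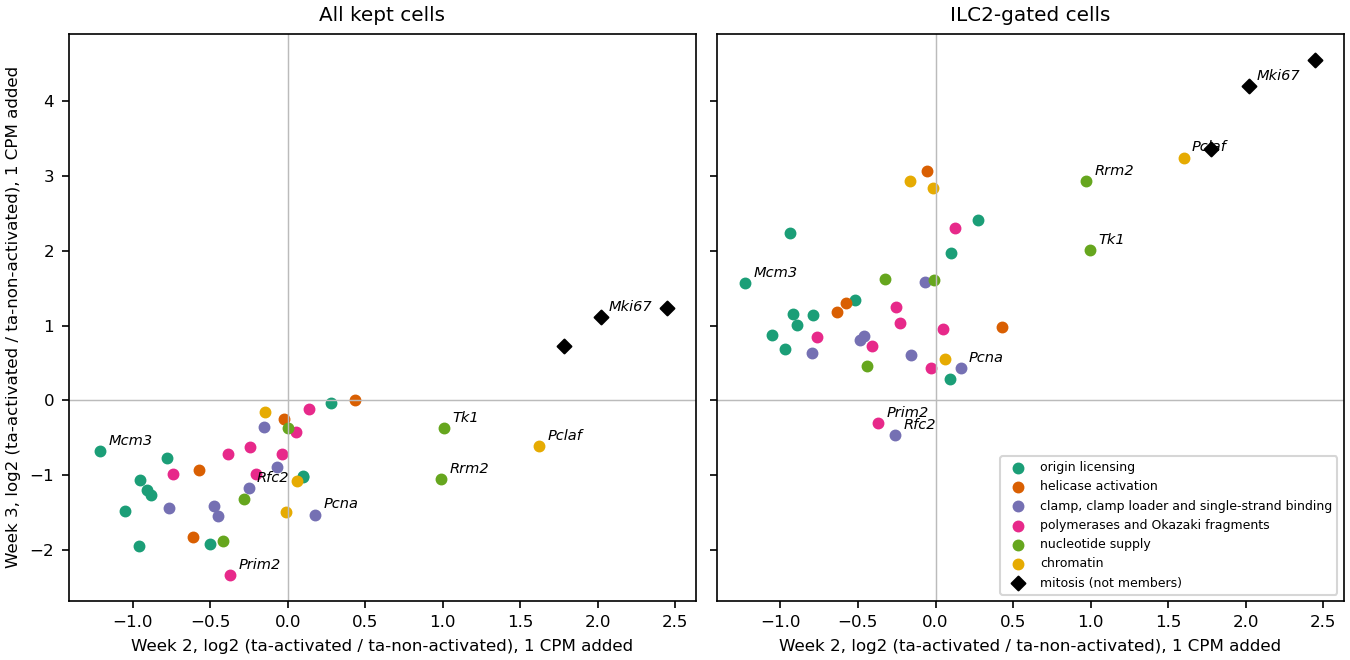
Log2 ratio of cultured to fresh tumour level (1 CPM added) in week 2 (horizontal) and week 3 (vertical) for each replication gene and 3 mitosis genes, for all kept cells (left) and ILC2-gated cells (right). In ILC2-gated cells 37 of 39 members lie above 0 in week 3, beside 8065 of 12643 genes tested. In week 2, 28 members lie below 0, beside 5055 of these genes, while the mitosis genes lie above 0 in both weeks.

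To compare shares of cells, cells with at least 2000 UMIs were thinned to 2000 UMIs, which left out 242, 14, 106, 73 and 108 shallower cells from the naive, the fresh tumour and the cultured libraries in this order. UMIs of 2 or more members were found in 22.5% of naive cells (Clopper-Pearson 95% interval 21.4 to 23.5), in 58.4% (56.1 to 60.7) and 52.8% (50.3 to 55.4) of fresh tumour cells of weeks 2 and 3, and in 38.3% (36.5 to 40.2) and 33.7% (32.2 to 35.3) of cultured cells. Without thinning the shares were 54.8% of naive cells, 95.6% and 69.4% of fresh tumour cells, and 85.9% and 83.3% of cultured cells. The cultured libraries averaged 36.0% ± 3.3 (SD, n = 2) and the fresh tumour 55.6% ± 3.9 (SD, n = 2), with p = 0.333 in the exact two-sided permutation test, the smallest possible. In ILC2-gated cells the groups overlapped, with 58.5% and 23.1% of fresh tumour cells of weeks 2 and 3 and 38.2% and 33.7% of cultured cells, and the difference of -19.6 percentage points became -4.84. In the week 3 fresh tumour library the share was 74.0% (71.0 to 76.9) of thymocyte-like cells, and the ILC2-gated share (19.6 to 26.9) stood beside 21.9% of ILC2-gated naive cells. Single genes were seen in fewer cells: Dut in 12.1% of naive, 30.7% and 32.9% of fresh tumour and 21.2% and 16.9% of cultured cells, Mcm6 in 3.86%, 17.6% and 19.9%, and 10.2% and 7.94%, and Pclaf in 0.50%, 6.58% and 9.97%, and 17.3% and 13.2%. Free RNA in droplets can add UMIs to any cell, and its part in these shares was not tested.

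Cells with replication UMIs differed in whether they also held mitosis UMIs. Of cells with 2 or more members, 3.91% also had a UMI of Mki67, Top2a or Cenpf in the naive library, 14.6% and 21.6% in the fresh tumour libraries, and 50.6% and 49.3% in the cultured libraries. Within the week 3 fresh tumour library it was 24.8% (21.5 to 28.4) of the thymocyte-like and 6.56% (2.87 to 12.5) of the ILC2-gated cells. Cells with 2 or more members and no mitosis UMI were 21.6% of the naive library, 49.9% and 41.4% of the fresh tumour libraries and 19.0% and 17.1% of the cultured libraries. In ILC2-gated cells of the week 3 fresh tumour library they were 21.6% (18.2 to 25.3), near the naive and cultured shares. Member UMIs were also more concentrated in the cultured libraries: the tenth of cells with the most held 36.0% of them in the naive library, 36.7% and 47.1% in the fresh tumour and 48.3% and 52.9% in the cultured libraries. In ILC2-gated cells the values were 35.9%, 36.7% and 40%, and 48.2% and 52.8%, in the same order.

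**Figure D5:**
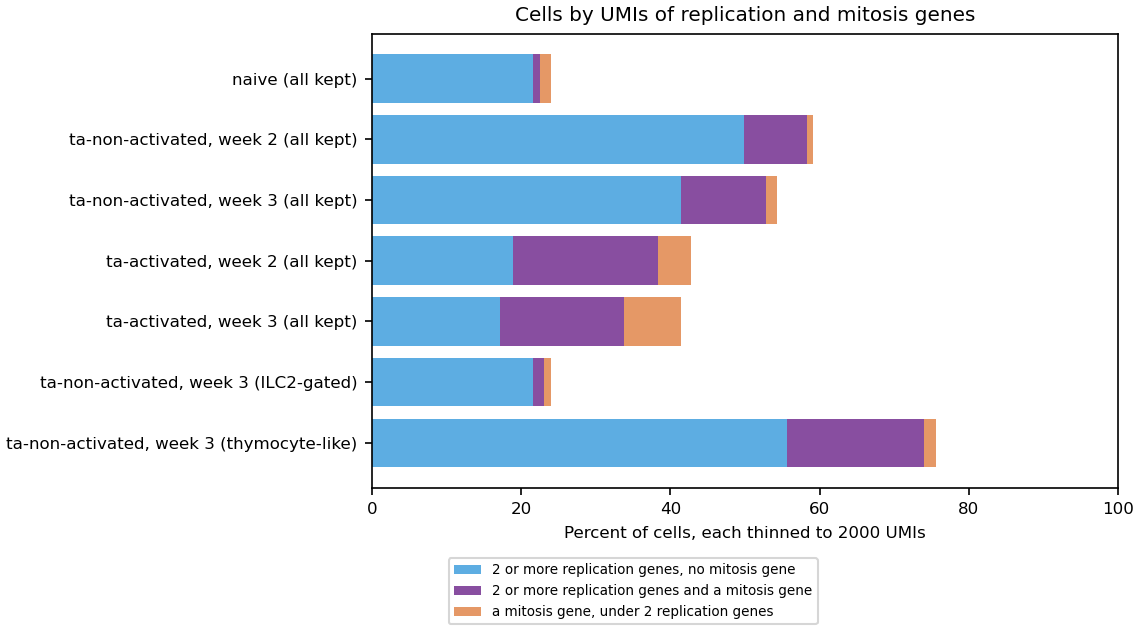
Percent of cells, each thinned to 2000 UMIs, with UMIs of 2 or more replication genes and no mitosis gene (blue), of both (purple) or of a mitosis gene with under 2 replication genes (orange), by library, and for the 2 gates of the week 3 fresh tumour library. The purple part is 19.4% and 16.6% of the cultured cells and 8.51% and 11.4% of the fresh tumour cells.

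A split of the thinned cells by 13 other mitosis genes (2 or more with UMIs), chosen after the levels were seen, gave the levels in cells with little mitotic RNA. Cells with these genes made up 0.36% of naive cells, 4.201% and 8.70% of fresh tumour cells and 19.5% and 14.1% of cultured cells. In the other cells the members summed to 474 CPM in the naive library (462 to 487), 1456 (1416 to 1496) and 1326 (1283 to 1370) CPM in the fresh tumour libraries, and 752 (727 to 777) and 669 (649 to 689) CPM in the cultured libraries. These other cells held 85.4% and 67.4% of the member UMIs of the fresh tumour libraries and 45.2% and 50.4% of those of the cultured libraries. Mcm6 stood in them at 20.4 CPM, 102 and 104 CPM, and 42.3 and 35.9 CPM in the same order of libraries, and Dut at 65.6 CPM, 192 and 209 CPM, and 89.6 and 67.8 CPM. Pclaf did not follow, at 2.12 CPM in the naive library, 30.3 and 38.8 CPM in the fresh tumour and 45.1 and 34.0 CPM in the cultured libraries. In ILC2-gated cells the sums were 463 CPM in the naive library, 1459 and 490.5 CPM in the fresh tumour and 746 and 662 CPM in the cultured libraries.

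Of 31 other replication genes outside the 39, none passed the edgeR threshold, and 16 were lower in both cultured libraries than in both fresh tumour ones (20.6% of all genes). In ILC2-gated cells of week 3, 26 of the 31 were above 0 (median log2 ratio 0.83, all genes 0.30), beside 8065 of 12643 genes tested. The largest edgeR changes were those of Pold2, a polymerase delta subunit (-1.56, SE 0.33, adjusted p = 0.24 in edgeR and 0.012 in DESeq2), Rnaseh2b, a subunit of the nuclease that removes RNA from DNA (-1.24, adjusted p = 0.25), Tipin (-1.15, adjusted p = 0.28) and Timeless (-1.03, adjusted p = 0.27), which protect forks together, Pole3, a polymerase epsilon subunit (-1.05, adjusted p = 0.25), and Rpa3 (-0.99, adjusted p = 0.38). Of 24 genes of G1/S control, none passed. In all kept cells 9 (37.5%) were higher in both cultured libraries and 3 (12.5%, Cdk4, Cdc25a, Myc) lower, beside 32.4% and 20.6% of all genes. In ILC2-gated cells of week 3, 21 of the 24 were above 0 (median log2 ratio 1.38, all genes 0.30). Of the 3 lower genes, Cdk4 (0.72) and Cdc25a (1.52) were above 0 there and Myc (-0.24) was not. The largest edgeR log2 fold changes in that list were above 0: Cdkn2a, a locus of inhibitors of the G1 to S step, stood at 0.56 CPM in the naive library, 5.60 and 0.21 CPM in the fresh tumour and 79.0 and 35.3 CPM in the cultured libraries (4.02, SE 1.42, adjusted p = 0.28 in edgeR and 0.017 in DESeq2). Rbl2, a pocket protein of resting cells, followed (2.08, SE 0.36, adjusted p = 0.24 in edgeR and 4.08e-04 in DESeq2), with Ccnd1 (1.95, adjusted p = 0.46), E2f7 (1.85, adjusted p = 0.30), Cdkn2d (1.65, adjusted p = 0.25 in edgeR and 0.029 in DESeq2) and the D-type cyclin Ccnd2 (1.30, adjusted p = 0.38). Ccnd1 had log2 ratios of 2.08 in week 2 and -0.41 in week 3, and its fold change was -0.33 without the week 2 cultured library. Rbl2 stood at 102 CPM in the naive library, 26.6 and 22.1 CPM in the fresh tumour and 109 and 115 CPM in the cultured libraries. Its log2 ratio of cultured to fresh was 2.00 in week 2 and 2.33 in week 3. In ILC2-gated cells these were 2.02 and 0.94.

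Promoters of replication and mitosis genes were compared for the motifs known for each class. RefSeq windows of 300 bases on GRCm38.p6, from 250 before to 50 after a transcription start, were found for 33 of the 39 members and for all 3 mitosis genes. An E2F-type motif was searched as TTTGGCGC, TTTCCCGC, TTTCGCGC or TTTGCCGC, the cell cycle homology region (CHR) of mitosis genes as TTTGAA, and the CCAAT box as CCAAT, each on both strands. An E2F-type match stood in 14 of 33 members (42.4%), against 2.6% of the 27025 genes with a window, and in none of the 3 mitosis genes. A CHR match stood in 4 of 33 members (12.1%), against 20.2% of all genes, and in all 3 mitosis genes. A CCAAT match stood in 21 members (63.6%), against 41.1% of all genes, and in all 3 mitosis genes. Of a list of 16 mitosis genes that includes these 3, 14 had a window. Among these 14, 1 (7.14%) had an E2F-type match, 10 (71.4%) a CHR match and 13 (92.9%) a CCAAT match. E2F-type matches on opposite strands overlap each other in Mcm5 and Mcm6. These matches describe the sequence and are not sites shown to be bound. The 120 bases before the start are printed for 3 members with a match, among them Mcm6 with the most matches, for Pcna, which has neither E2F-type nor CHR match, and for 2 mitosis genes. Capitals mark E2F-type matches in Orc1 (chr4:108579334-108579453, plus strand) and Mcm6 (chr1:128359706-128359825, minus strand), an E2F-type and then a CHR match in Gins3 (chr8:95633439-95633558, plus strand), and CHR matches in Mki67 (chr7:135716380-135716499, minus strand) and Top2a (chr11:99024190-99024309, minus strand), and Pcna (chr2:132253181-132253300, minus strand) has no capitals.
Orc1: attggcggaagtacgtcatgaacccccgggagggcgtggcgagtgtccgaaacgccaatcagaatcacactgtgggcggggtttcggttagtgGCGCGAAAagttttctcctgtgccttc
Mcm6: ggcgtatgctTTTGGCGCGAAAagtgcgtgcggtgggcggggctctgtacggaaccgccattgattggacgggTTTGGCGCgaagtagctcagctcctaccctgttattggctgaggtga
Gins3: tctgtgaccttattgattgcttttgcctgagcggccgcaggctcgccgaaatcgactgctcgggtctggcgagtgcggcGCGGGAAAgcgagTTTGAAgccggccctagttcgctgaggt
Pcna: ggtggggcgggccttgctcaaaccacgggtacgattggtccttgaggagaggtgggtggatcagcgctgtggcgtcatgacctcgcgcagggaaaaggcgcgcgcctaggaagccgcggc
Mki67: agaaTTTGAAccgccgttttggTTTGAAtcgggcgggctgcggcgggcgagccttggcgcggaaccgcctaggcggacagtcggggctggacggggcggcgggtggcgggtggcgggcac
Top2a: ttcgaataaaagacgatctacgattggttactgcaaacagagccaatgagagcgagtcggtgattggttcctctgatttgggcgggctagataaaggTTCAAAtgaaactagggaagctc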

How the data were processed

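For each of the 5 libraries the authors deposited a Cell Ranger matrix of UMI counts, not normalized. The submitters' processing notes name Cell Ranger 3.0.2, Seurat 3 and GRCm38, and the matrix headers name Cell Ranger 6.0.0 for the naive library and 3.0.2 for the other 4. Whether intron reads were counted is not given in the sources used here. The 39 members, the lists and the tests were chosen with earlier results of these data known. Cells with fewer than 200 genes or with 5% or more mitochondrial UMIs were removed, doublets were not called, and genes outside the 27726 common ones were left out. Levels (CPM) are sums of UMIs in a library or gate, scaled to a total of 1000000, and ratios of levels have 1 CPM added. Summed counts were tested with edgeR 4.0.16 in R 4.3.3 (filterByExpr, TMM, quasi-likelihood F test, Benjamini-Hochberg adjustment, threshold 0.05), with DESeq2 1.42.0 beside it. The edgeR fit was also run on simulated counts with the same spread between libraries set for every gene. Such a run cannot show how many real changes the fit finds in these libraries. Cells were thinned with a fixed seed in Python 3.11.15 (numpy 2.4.6, scipy 1.17.1, pandas 2.3.3), and figures were drawn with matplotlib 3.10.9. Gene positions came from GENCODE M21 on GRCm38. All members are accounted for, and named with values in all libraries are the member with the largest mean level of each role group, the 3 with the largest and the 3 with the smallest change in each comparison, and 3 mitosis genes, and of the other lists up to 6 genes each with the largest change. Other members are named with a value or within a range. Alternatives were other size factors, filters, barcodes, cells, mitosis genes, thinning depths and gates, a replicate block for the week, and each library left out.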

Additional observations from a re-analysis of the deposited data

Results flagged for a closer look

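The following ratios of ta-activated to ta-non-activated level moved opposite ways in the 2 weeks, beyond counting error in each, and with 1 library a week and group the difference between the weeks was not tested. In ILC2-gated cells the summed level of the 39 members had a log2 ratio of -0.23 in week 2 (95% counting interval -0.24 to -0.21) and of 1.18 in week 3 (1.10 to 1.26), a difference of 1.41. There, 18 single members were lower in week 2 and higher in week 3, each beyond its counting interval, beside 9.86% of all genes, and none the reverse. With all kept cells, 4 members went the other way, higher after culture in week 2 and lower in week 3, beside 11.6% of all genes. For Pclaf the log2 ratio was 1.63 in week 2 and -0.62 in week 3, a difference of -2.25. For Rrm2 it was 1.001 and -1.06, a difference of -2.06. For Pcna it was 0.18 and -1.55, a difference of -1.73. For Tk1 it was 1.06 and -0.38, a difference of -1.44. In that week 3 fresh library 53.6% of cells were thymocyte-like, and their part in these differences was not tested. In ILC2-gated cells all 4 genes were higher after culture in week 3 as well, with the log2 ratio of Pcna at 0.44 (0.07 to 0.80).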

How the results depend on the processing

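edgeR called 0 genes and 0 members in the fit as reported, with the week as a replicate block (0 genes, 0 members), with all genes of at least 1 count, with all 5 libraries in 1 fit, with all deposited barcodes, with a mitochondrial limit of 10%, with ILC2-gated cells and without the top 5% of barcodes by UMIs. The weeks pair only 2 libraries in each group. DESeq2 called 1047 genes and 3 members. Leaving out 1 library gave 0 to 1646 genes and 0 to 5 members, with the most calls without the week 2 ta-non-activated library, where the lone week 3 library is assumed to vary like the other group. The members' median log2 fold change was -0.047 with ILC2-gated cells, -0.78 with the replicate block and -0.95 to -0.51 with 1 library left out. Members higher in both ta-activated libraries numbered 0 with all deposited barcodes and with the 10% limit, 6 with ILC2-gated cells, and 6 without the top 5% of barcodes. Without the week 3 ta-non-activated library, a choice made after seeing the data, they numbered 6. Members lower in both numbered 1 with ILC2-gated cells. The difference in the share of cells with 2 or more members (ta-activated minus ta-non-activated, -19.6 percentage points) was 2.16 without thinning, where it turned, -10.2 at 1000 UMIs, -13.1 with 3 members required and -4.84 with ILC2-gated cells. The log2 replication to mitosis ratio kept its difference within 1 SD in the alternatives run, while the naive ratio of 12.9 was 27.1 without the top 5% of barcodes and 6.26 with 16 mitosis genes, and the 38 members higher in thymocyte-like cells stayed within 1.5 times under other gates and 5 CPM added. Directions were checked gene by gene only for 27 genes named with a fold change, so turns of other members are not listed. Among these 27, directions turned for Rrm2 (1.19 with ILC2-gated cells, 0.59 without the top 5%, and -0.63 to 0.39 with 1 library left out) and Pcna (0.065 with ILC2-gated cells). They also turned for Tk1 (-0.16 to 0.68 with 1 library left out) and Pclaf (-0.33 to 1.20), both below 0 without the week 2 ta-non-activated library. Ccnd1 (-0.33 to 2.78) was below 0 without the week 2 ta-activated library. The cause was not tested. The ILC2-gated values of the week 3 fresh library rest on 590 cells.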
